A study of Caenorhabditis elegans with 14 samples.

Results

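The 515 mature piRNAs followed here are the better read part of the piRNA population of normal Caenorhabditis elegans. They are the mature piRNA features that held 10 or more sense reads in the untreated library of the control strain, n2, with the 6 loci of most reads left out (piR-cel-1793, piR-cel-3421, piR-cel-4375, piR-cel-5107, piR-cel-5504 and piR-cel-6009). They were 515 of 7641 mature piRNA features that had a read in any of the 14 libraries. In untreated control itself 3404 features had a read, of which 2883 had 1 to 9 reads, and the remaining 4237 features of the series had none there. The members were chosen by their reads in untreated control, so those reads, and every comparison made with them, are given as a description without a test.

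piRNAs of this worm are germline small RNAs that guide the Piwi protein PRG-1 to foreign and self transcripts. Each is transcribed from its own short locus as a capped precursor. The PICS complex, also called PETISCO, binds precursors and is needed for their maturation, in which the cap and the first nucleotides are removed from the 5′ end. The piRNA then begins with a monophosphate, is held by PRG-1, is trimmed at its 3′ end by PARN-1 and is methylated by HENN-1. TOFU-6, ERH-2 and PICS-1, whose gene is annotated as pid-3, are subunits of the complex in both of its forms, whereas TOST-1 belongs to the form that acts in chromosome segregation and takes the place of PID-1, the subunit of the piRNA form.

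All libraries were made from whole late young adult worms grown at 20 °C on OP50 bacteria, with RNA of 17 to 30 nucleotides. TDP2 libraries came from RNA that was first treated with the phosphatase CIAP and then with Tobacco Decapping plus 2, an enzyme that removes 5′ caps. They held 4 tofu-6 alleles (it20, ust94, ust95 and yt2), pics-1(tm2417), erh-2(ust101), prg-1(n4503) and the control, with 1 library each. Untreated libraries held tofu-6(ust94), pics-1(tm2417), erh-2(ust101), prg-1(n4503), tost-1(ust103) and the control, with 1 library each. The only group of more than 1 library was therefore tofu-6 with TDP2, whose 4 libraries were 4 alleles. The labels give no replicate cultures of any strain, so a p-value reflects only how these particular libraries varied, which may be technical in part. In the comparison of TDP2 genotypes that spread lies between the 4 tofu-6 alleles. Differences between alleles and technical ones cannot be told apart in it.

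The libraries held 6918136 to 13469619 assigned reads. Reads of the mutated genes did not mark every strain: tofu-6 had 15 sense reads in tofu-6(ust94) TDP2 against 118 in control TDP2, pid-3 had 12 in pics-1 TDP2 against 52, and tost-1 had 7 in tost-1 untreated against 30 in control untreated, but erh-2 had 78 in erh-2 TDP2 against 53 in control TDP2, and prg-1 had 216 in prg-1 untreated against 203 in control untreated, with 103 in prg-1 TDP2 against 201 in control TDP2. All 11 oocyte and germline marker genes had sense reads in every library, with a summed level of 395 to 1160 RPM (reads scaled to 1000000 assigned reads). Sperm marker genes differed most, with 2.00 to 256 RPM in the TDP2 libraries and 1.20 to 64.2 in the untreated ones, and 0 to 30 of the 37 genes at 0 in a library. MicroRNAs took 8.35% of the reads in control TDP2 and 4.01% in control untreated, whereas they took a smaller share with TDP2 in the other 4 strains that had both libraries.

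In the untreated libraries the members took a smaller share of the reads in tofu-6, pics-1, erh-2 and prg-1 than in the control, and a larger share in tost-1. As a share of assigned reads they held 0.176% in tofu-6(ust94), 0.0726% in pics-1 worms, 0.141% in erh-2 worms, 0.000719% in prg-1 and 0.362% in tost-1, against 0.253% in the control. The exact 95% intervals of these shares did not overlap, and they cover counting error only, since reads are not independent molecules. Summed sense RPM of 8 soma marker genes was 7698, 7639, 7109, 2798 and 5537 in tofu-6(ust94), pics-1 worms, erh-2 worms, prg-1 and tost-1, against 3719 in the control. Sperm markers were at 10.1, 3.41, 1.20, 64.2 and 2.31 RPM in these mutants, against 26.2 in the control, and oocyte and germline markers at 1138, 1160, 1061, 451 and 1090 RPM, against 599. The part of these markers in the members' shares was not tested. In whole worms, fewer cells that make a small RNA and less of it per cell cannot be told apart.

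The members were nearly absent from untreated prg-1 but not from the PICS mutants. In untreated prg-1 the members together held 73 reads and 457 of the 515 had none, where a count of 0 allows up to 3 reads. They held 20737 reads in untreated tofu-6(ust94), 7665 in pics-1 worms and 11828 in erh-2 worms, with 513, 500 and 512 members seen. The median member had 20 reads in tofu-6(ust94), 8 in pics-1 worms, 11 in erh-2 worms, 0 in prg-1 and 28 in tost-1, against 20 in the control. These libraries differed in depth, and in RPM the medians were 1.70, 0.758, 1.32, 0 and 4.05, against 2.83 in the control.

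The members' part of the mature piRNA pool was similar in the untreated PICS mutants and in the control, whose reads chose them. They made up 62.7% of mature piRNA reads in untreated tofu-6(ust94), 60.3% in pics-1 worms, 61.9% in erh-2 worms and 60.7% in tost-1, against 62.8% in the control. In untreated prg-1 they made up 30.3%. So 5 of the 6 untreated libraries lay within a few percent of each other although their totals differed, and prg-1 stood apart.

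**Figure D1:**
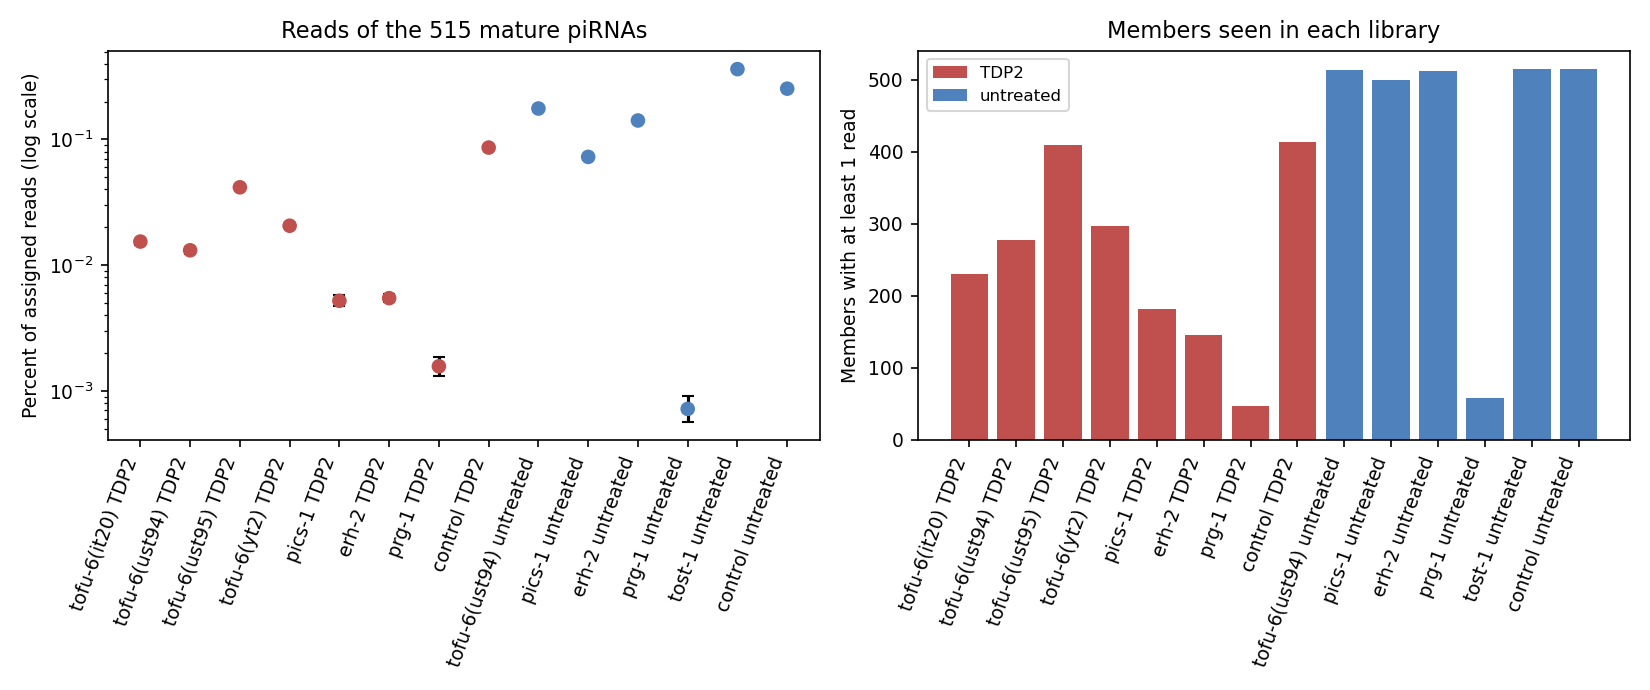
Left, percent of assigned reads on the 515 mature piRNAs in each library (log axis; bars are exact 95% counting intervals, mostly smaller than the points). Right, number of members with at least 1 read; TDP2 libraries are red and untreated ones blue. The untreated libraries lie between 0.0726% and 0.362% apart from prg-1 at 0.000719%, and the control is the highest of the TDP2 libraries.

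Member by member, the untreated mutants were first set against the untreated control, which can only describe since that library chose the members. Called here means 2-fold or more lower or higher in RPM. In tofu-6(ust94) 224 of the 515 were lower and 7 higher, where 7.30% and 25.5% of all 8832 features with 10 reads in untreated control were. In pics-1 worms 460 were lower and 1 higher, against 11.4% and 26.7% of all features, and in erh-2 worms 297 and 3, against 11.4% and 17.1%. In prg-1 all 515 were lower and 0 higher, against 18.4% and 2.94% of all features. In tost-1 21 were lower and 74 higher, against 7.78% and 9.84% of all features. Per microRNA read, tofu-6(ust94) had 97.1% of the members 2-fold lower and the erh-2 strain 93.2%.

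The untreated tost-1 library, which had no part in choosing the members, was the second comparator. The summed member RPM was 0.486 of tost-1 in tofu-6(ust94) (95% counting interval 0.477 to 0.495), 0.200 in pics-1 worms (0.195 to 0.206), 0.390 in erh-2 worms (0.382 to 0.399) and 0.00198 in prg-1 (0.00156 to 0.00250). Of the 515 members, 305 were 2-fold or more lower in tofu-6(ust94) than in tost-1, against 4.56% of the features tested. In pics-1 worms 480 were lower, against 7.52%, in erh-2 worms 382, against 8.10%, and in prg-1 514, against 35.3%. Higher by 2-fold or more were 7, 2, 2 and 0 members, where 12.5%, 10.5%, 7.73% and 6.06% of all features were. Per microRNA read the summed ratio to tost-1 was 0.141 in tofu-6(ust94), 0.0759 in pics-1 worms, 0.169 in erh-2 worms and 0.00129 in prg-1, and 505, 510, 501 and 515 members were 2-fold or more lower. Each side was 1 library, so these counts have no replicate check.

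**Figure D2:**
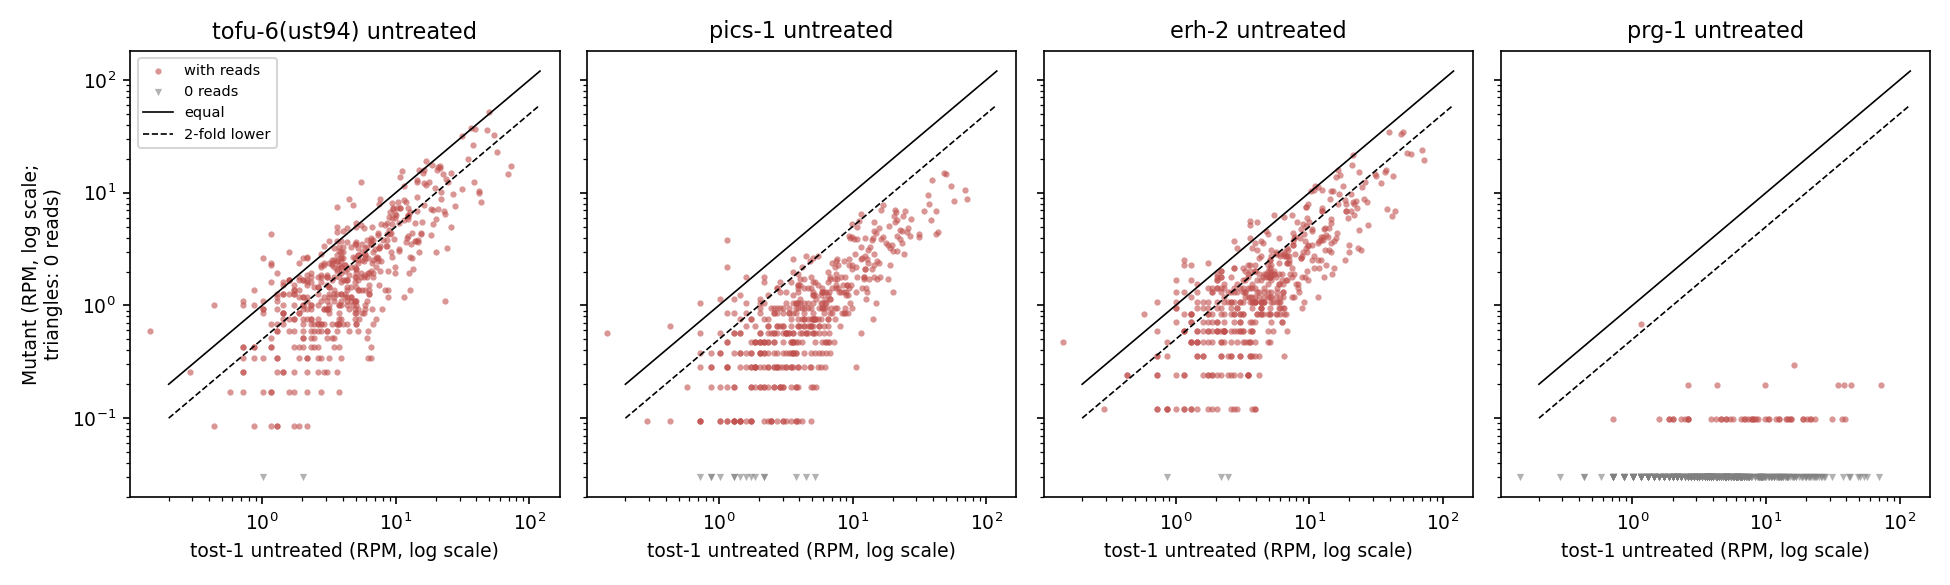
RPM of each of the 515 members in 4 untreated mutants (vertical) against untreated tost-1 (horizontal), both on log axes. The solid line marks equal levels, the dashed line a level 2-fold lower, and grey triangles are members with 0 reads in the mutant. Nearly the whole cloud lies below the dashed line in pics-1 worms, while in prg-1 most members are at 0.

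The members differed widely in how far below tost-1 they were. The median member stood at 0.423 of tost-1 in tofu-6(ust94), 0.173 in pics-1 worms and 0.334 in erh-2 worms, but the range from the 5th to the 95th percentile was 0.105 to 1.17, 0.0351 to 0.524 and 0.0919 to 0.957. The counting interval of a member's own ratio lay wholly below the summed ratio for 130 members in tofu-6(ust94), 58 in pics-1 worms and 88 in erh-2 worms, and wholly above it for 78, 56 and 58, with 1 library on each side and so no measure of the spread between replicates.

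Among the 137 members with 50 or more reads in untreated tost-1, 5 stood highest in the ratio to tost-1 of the RPM summed over the 3 PICS mutants: piR-cel-2584, piR-cel-3788, piR-cel-1656, piR-cel-3063 and piR-cel-2728. piR-cel-2584 had 15.5 RPM in tofu-6(ust94), 5.59 in pics-1 worms and 11.5 in erh-2 worms, against 11.1 RPM in tost-1 and 10.5 in the control. piR-cel-3788 had 13.7 RPM in tofu-6(ust94), 4.93 in pics-1 worms and 10.5 in erh-2 worms, against 10.8 RPM in tost-1 and 7.21 in the control. They were picked as the highest, so these values only describe. In tofu-6(ust94) they stood at 1.39 and 1.26 of tost-1 in RPM but at 0.404 and 0.367 per microRNA read. Both had 0 reads in prg-1.

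At the low end stood piR-cel-4021, piR-cel-3819, piR-cel-1306, piR-cel-2721 and piR-cel-5105. piR-cel-3819 had 1.10 RPM in tofu-6(ust94), 3.60 in pics-1 worms and 3.23 in erh-2 worms, against 23.3 RPM in tost-1 and 9.19 in the control. piR-cel-4021 had 1.19 RPM in tofu-6(ust94), 0.568 in pics-1 worms and 1.20 in erh-2 worms, against 11.6 RPM in tost-1 and 6.22 in the control. These members were picked as the lowest in the PICS mutants, so their low values only describe. Among these mutants piR-cel-3819 was lowest in tofu-6(ust94), at 0.0474 of tost-1.

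The most read members in untreated control, named for that and described only, lay between these ends. piR-cel-240 had 17.4 RPM in untreated tofu-6(ust94), 8.81 in pics-1 worms, 19.4 in erh-2 worms, 0.197 in prg-1 and 72.4 in tost-1, against 56.6 RPM in the control. piR-cel-4730 had 14.7 RPM in tofu-6(ust94), 10.6 in pics-1 worms, 23.8 in erh-2 worms and 69.5 in tost-1, with no read in prg-1, against 56.1 RPM in the control. piR-cel-2290 had 52.2 RPM in tofu-6(ust94), 14.8 in pics-1 worms, 34.4 in erh-2 worms and 50.2 in tost-1, with no read in prg-1, against 40.9 RPM in the control. Thus piR-cel-2290 overtook piR-cel-240 as the most read member in tofu-6(ust94), while piR-cel-240 led in tost-1 and the control.

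Of the reads that members kept in untreated prg-1, the most fell on piR-cel-19604, with 7 reads (0.690 RPM). It had 51 reads in untreated tofu-6(ust94), 40 in pics-1 worms, 21 in erh-2 worms and 8 in tost-1, against 10 in the control. In RPM it was 3.75-fold higher in tofu-6(ust94) than in tost-1 (95% counting interval 1.76 to 9.14) and 3.28-fold higher in pics-1 worms (1.51 to 8.11), against the direction of nearly all other members. Per microRNA read it stood at 1.09 of tost-1 in tofu-6(ust94) and 1.24 in pics-1 worms. The next in prg-1 was piR-cel-4252 with 3 reads, followed by 7 members with 2, among them piR-cel-1615, piR-cel-240 and piR-cel-552, all at or under the floor of 3 counts.

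On the inside of the 10-read threshold, the 113 members with 10 to 12 reads in untreated control averaged 10.9 reads in tofu-6(ust94), 4.93 in pics-1 worms, 6.87 in erh-2 worms and 15.5 in tost-1, and the 188 features just outside it, with 7 to 9 reads, averaged 9.62, 3.22, 4.41 and 11.7. Inside it, piR-cel-229 had 7 reads in tost-1 and 12 in untreated control, and piR-cel-444 had 23 in tost-1 and 10 in untreated control. Outside it, piR-cel-28 and piR-cel-35 each had 15 in tost-1 and 7 in untreated control. At the members themselves antisense reads were rare: there were none in the untreated libraries and at most 5 in a TDP2 library, erh-2.

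After CIAP and TDP2, the members together held a smaller share of reads than untreated in tofu-6(ust94), pics-1, erh-2 and control. In prg-1 their summed share was larger, though fewer members were seen. The summed share with TDP2 was 0.0746 of the untreated share in tofu-6(ust94), 0.0717 in pics-1 worms, 0.0386 in erh-2 worms and 0.340 in the control. In prg-1 it was 2.18 (95% counting interval 1.63 to 2.94), from 136 reads with TDP2 and 73 reads untreated. There 47 members had a read with TDP2 and 58 untreated. The 10 most read members of each prg-1 library held 63.2% of its member reads with TDP2 and 34.2% untreated. Dephosphorylation takes away the 5′ monophosphate that mature piRNAs need for cloning. MicroRNAs have the same end. Their ratios were 0.153 in tofu-6(ust94), 0.362 in pics-1 worms, 0.0891 in erh-2 worms, 0.250 in prg-1 and 2.08 in the control. The part of the microRNA change in the members' change was not tested.

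The effect of TDP2 was tested in the 4 mutant strains, paired by strain, with edgeR's quasi-likelihood test across 20353 features and Benjamini-Hochberg adjustment. Of the 515 members 334 could be tested and 181 had too few reads. In this fit 313 members were lower with TDP2 and 0 higher, against 9.28% and 40.0% of all features. Since 302 of the 334 reached 10 reads in none of the 4 TDP2 libraries fitted and passed the filter only through their untreated reads, the count is a description; of the 32 that did reach it, 24 were lower and 8 were not called, with a median log2 change of -3.60, beside 0.60 for all features. All 313 were lower within each pair other than prg-1, and 39 were lower in the prg-1 pair too. Only 58 of the 515 members had a read in untreated prg-1 and so could be lower there. Of the 313, 289 passed the filter only through untreated reads, so the counts by pair are a description too. Without the tofu-6(ust94) pair 174 members were lower, and with microRNA reads as library size 110 were lower and 3 higher.

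piR-cel-3775 had the smallest adjusted p. It had 14 reads in tofu-6(ust94) TDP2, 7 in pics-1 worms, 8 in erh-2 worms and 0 in prg-1, against 432, 136, 292 and 1 read in the untreated libraries of the same strains, a log2 change of -5.13 ± 0.52 (SE, edgeR adjusted p = 0.000125). piR-cel-1544, one of the 302 that passed the filter through untreated reads alone, had 7, 5, 7 and 0 reads with TDP2 against 439, 101, 127 and 1 untreated. piR-cel-19604, in contrast, had 19, 20, 16 and 18 reads with TDP2 against 51, 40, 21 and 7 untreated and did not pass the test (log2 change -0.76 ± 0.57, edgeR adjusted p = 0.297). With microRNA reads as library size its log2 change was 2.11 and passed.

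In the control pair, which is not in that fit, the ratio of TDP2 to untreated reads varied widely between members. piR-cel-5554 had 0 reads in control TDP2 and 308 in control untreated. piR-cel-4817 had 499 reads in control TDP2 and 44 in control untreated, and piR-cel-2290 had 374 and 289. Of the 515 members 101 had no read in control TDP2, 55 had at least their untreated RPM, and the highest ratio was 9.58, for piR-cel-2686.

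Those 55 members, picked after these values were seen, took 53.2% of member reads in control TDP2 and 8.32% in control untreated. They also took a large share of member reads in TDP2 libraries that did not pick them: 60.04% in tofu-6(it20), 43.3% in yt2, 27.3% in ust95, 36.1% in pics-1 worms and 57.1% in erh-2 worms. In tofu-6(ust94) TDP2 it was 11.4% and in prg-1 TDP2 13.97%, near the 7.58% to 13.7% of the untreated libraries. The tofu-6 alleles thus differed among themselves, with it20 and yt2 close to the control and ust94 close to the untreated libraries.

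**Figure D3:**
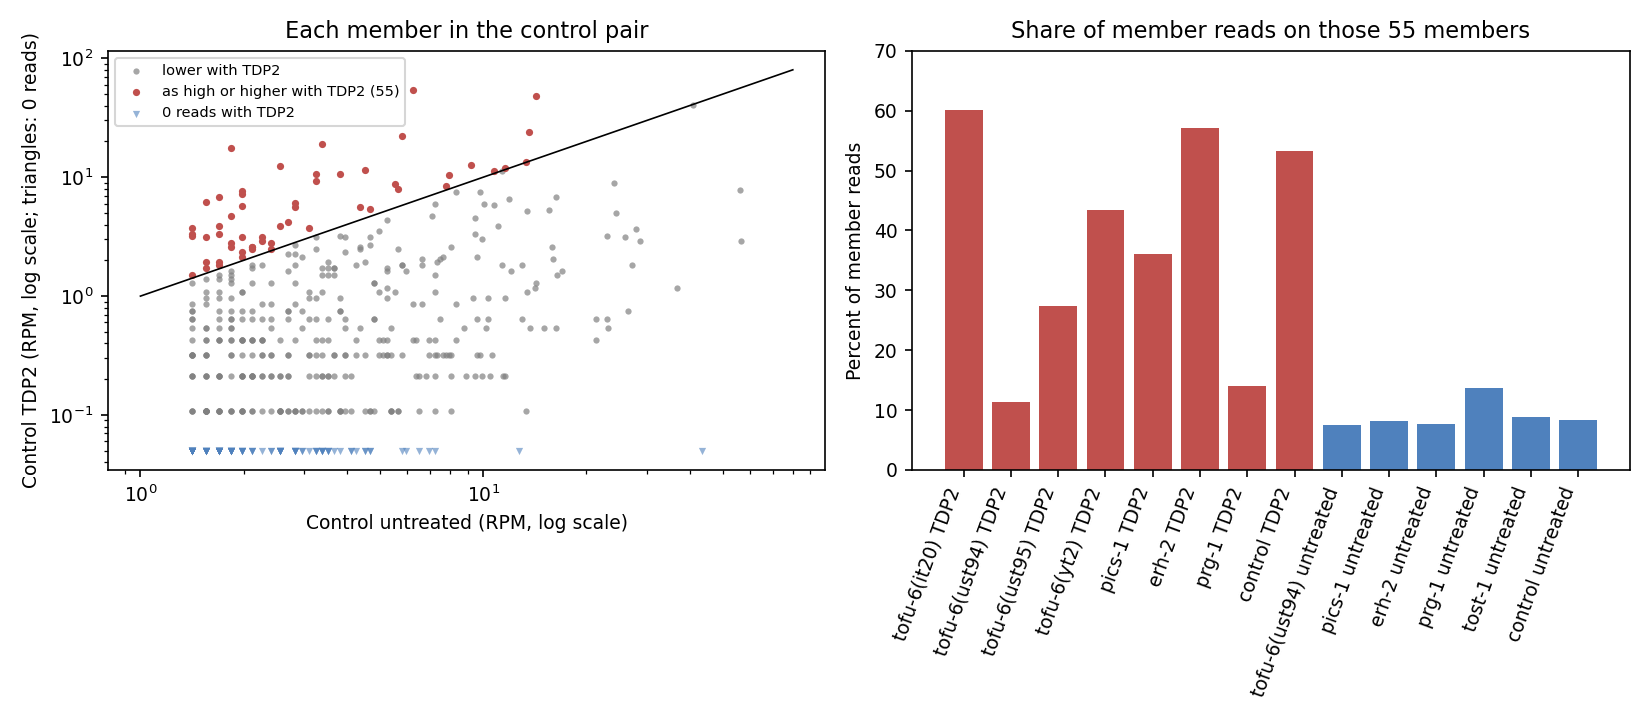
Left, RPM of each member in control TDP2 (vertical) against control untreated (horizontal), on log axes with the line of equal levels; 55 members lie on or above the line and triangles mark 0 reads. Right, percent of member reads on these 55 members in each library, TDP2 in red and untreated in blue. The share reaches 60.04% in tofu-6(it20) TDP2 and stays at or below 13.7% in the untreated libraries.

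The ranking of members also differed between the libraries. Over the 515 members Spearman's rho was 0.72 to 0.84 between the untreated libraries other than prg-1. The TDP2 libraries of tofu-6(it20), tofu-6(yt2), pics-1, erh-2 and control had rho of 0.41 to 0.70 with each other but only 0.23 to 0.37 with those untreated libraries. tofu-6(ust94) and ust95 TDP2 had rho of 0.48 to 0.63 with the untreated libraries. With those 5 TDP2 libraries ust94 had 0.22 to 0.31 and ust95 0.36 to 0.51, so ust95 lay between. Both prg-1 libraries correlated weakly with all others, and low counts lower rho in all shallow libraries, so these values only describe the order.

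**Figure D4:**
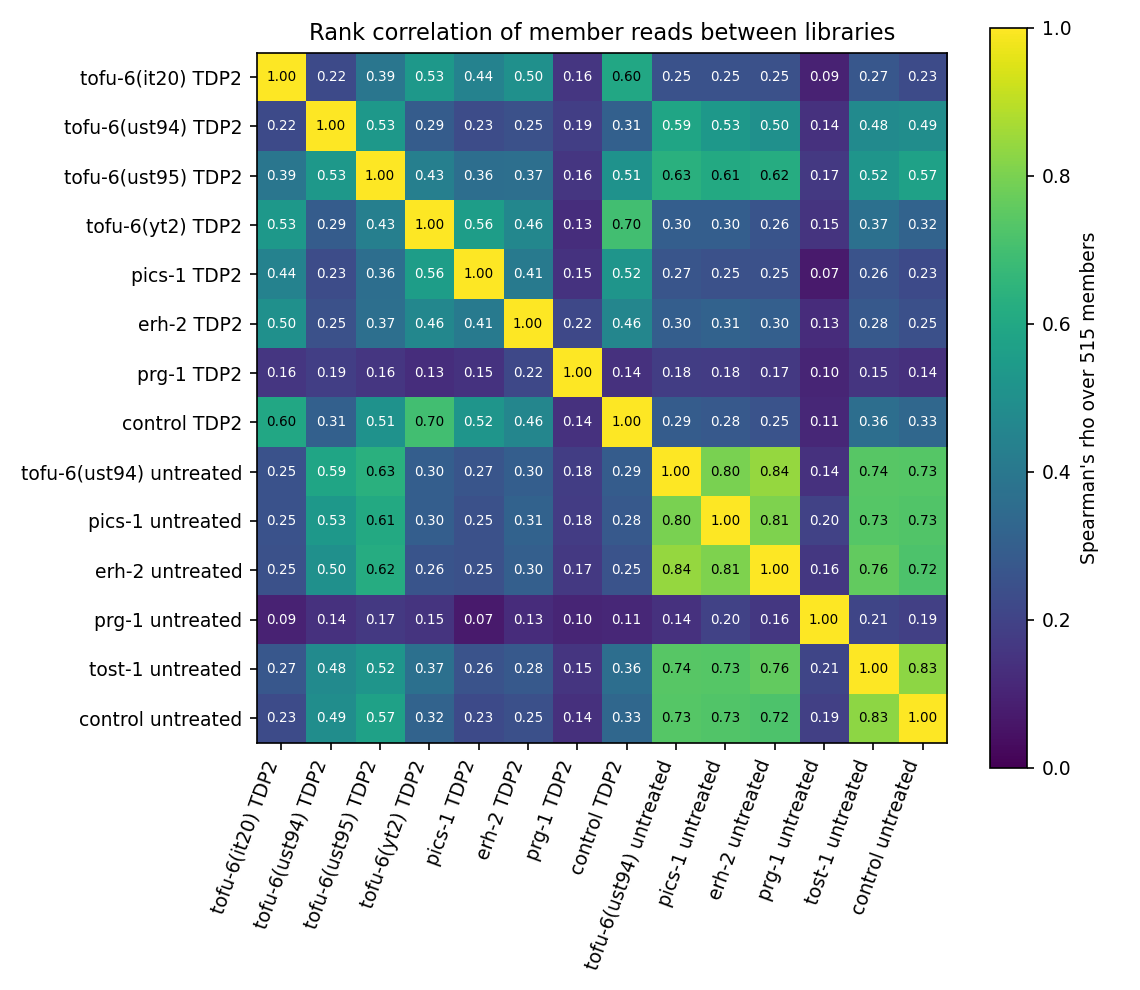
Spearman's rho of the read counts of the 515 members between all 14 libraries, TDP2 first and untreated after. The 5 untreated libraries other than prg-1 form a block of 0.72 to 0.84, and the TDP2 libraries other than ust94, ust95 and prg-1 a second, looser one of 0.41 to 0.70.

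Among the TDP2 libraries themselves, the members took a smaller share of the reads in all mutants than in the control. The members held 0.0154% of assigned reads in tofu-6(it20), 0.0131% in ust94, 0.0416% in ust95 and 0.0206% in yt2, 0.00521% in pics-1 worms, 0.00546% in erh-2 worms and 0.00157% in prg-1, against 0.0861% in the control. The tofu-6 mean was 0.0227% ± 0.0130 (SD, n = 4), or 0.263 of the control, with ust95 at 0.483 and the other alleles at 0.152 to 0.239. Without ust95 the tofu-6 share was 0.190 of the control. Per microRNA read the members stood at 0.794 of the control in tofu-6, as the mean of 4 alleles. By allele the ratio was 0.914 in it20, 0.617 in ust94, 0.984 in ust95 and 0.661 in yt2, so it20 and ust95 were near the control. It was 0.135 in pics-1 worms, 0.654 in erh-2 worms and 0.100 in prg-1. The microRNA share was higher with TDP2 than without it in the control but lower in the mutants that had both libraries, and whether dephosphorylation was as complete in the control as in the mutants cannot be told from these values, which bears on each comparison with control TDP2. Sperm marker genes moved in part with these groups, at 10.5, 15.2, 137 and 9.20 RPM in the it20, ust94, ust95 and yt2 libraries, 6.18 in pics-1 worms, 2.00 in erh-2 worms and 256 in prg-1, against 129 in the control, and their part in the result was not tested.

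In contrast to the untreated libraries other than prg-1, the members' part of the mature piRNA pool was smaller in mutants than in the control after TDP2. It was 35.6% ± 8.10 in tofu-6 (SD, n = 4), 17.8% in pics-1 worms, 14.4% in erh-2 worms and 6.04% in prg-1, against 50.4% in the control. The number of members with a read was 230, 278, 409 and 297 in the tofu-6 alleles, 181 in pics-1 worms, 146 in erh-2 worms and 47 in prg-1, against 414 in the control.

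The TDP2 genotypes were tested in 1 edgeR quasi-likelihood fit over 22549 features and all 8 libraries, in which the 4 tofu-6 alleles supply the only estimate of spread. Of the 515 members 138 had enough reads and 377 were not tested; 41 of the 138 reached 10 reads in control alone. In tofu-6, 8 members were lower than in the control and 0 higher, against 0.173% and 0.0887% of all features, and 4 of the 8 were among those 41. The members' median log2 difference was -2.01, beside 0.14 for all features, and 106 members had every allele below the control, 32 had alleles on either side and 0 had every allele above it. This median and this split include the 41 that passed the filter through control TDP2 alone, so both are a description. With RLE size factors, with no TMM scaling, with microRNA reads as library size, with DESeq2 or without the it20 library, 0 members passed in tofu-6, and without ust94, ust95 or yt2 the count was 2, 1 or 14.

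piR-cel-4817 passed with the smallest adjusted p. It had 41 reads in it20, 0 in ust94, 5 in ust95 and 54 in yt2, against 499 in control TDP2 (log2 difference -4.31 ± 0.81, SE; edgeR adjusted p = 0.000497). piR-cel-2686 had 21, 0, 0 and 14 reads, against 164 (log2 difference -4.15 ± 0.87, edgeR adjusted p = 0.00275). All alleles were below the control for both, and it20 and yt2 kept the most reads.

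The others named by rule, piR-cel-1569, piR-cel-7054 and piR-cel-4649, passed the filter only through control TDP2, and their reads are given as a description. piR-cel-1569 had 5, 0, 3 and 8 reads in it20, ust94, ust95 and yt2, against 116 in control TDP2. piR-cel-7054 and piR-cel-4649 were at 3, 0, 0 and 1 and at 7, 2, 4 and 7 reads in these alleles, against 52 and 86 in control TDP2. All 8 members that passed belonged to the 55 that control TDP2 held at or above their untreated RPM, a choice that shares the control TDP2 library with the test. In the untreated libraries, which share nothing with it, those 55 members stood at 0.417 of tost-1 in tofu-6(ust94), 0.187 in pics-1 worms and 0.341 in erh-2 worms, and the other 460 at 0.493, 0.202 and 0.395.

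In erh-2 worms, 2 members were lower and 0 higher, against 0.111% and 0.0577% of all features. piR-cel-1569 had 0 reads in erh-2 TDP2 and 116 in control TDP2, at least 55.9-fold lower in RPM with 3 counts as the floor of a library, but it reached 10 reads in control TDP2 alone and is given as a description. piR-cel-4319 had 3 reads in erh-2 TDP2 and 225 in control TDP2 (log2 difference -6.26 ± 1.57, edgeR adjusted p = 0.0407). Both calls were lost with RLE size factors, with no TMM scaling, with microRNA reads as library size, with no filter on low counts, without tofu-6(it20) and without tofu-6(ust95), and without yt2 the count was 6. The members' median was -3.59 with members at 0 set to their bound, beside -0.10 for all features. It is a description, since 41 of the 138 members tested reached 10 reads in control TDP2 alone.

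In pics-1 worms no member passed in either direction with edgeR, against 0.0355% of all features lower and 0.0177% higher, and DESeq2 gave 0 too, while leaving out tofu-6(ust94) gave 1 lower and leaving out yt2 gave 4. At an unadjusted p under 0.05 there were 88 of the 138 members, against 5.23% of all features, and the median with bounds was -3.79, beside -0.03 for all features. In prg-1, 39 members were lower and 0 higher, against 5.54% and 0.0887% of all features, with a median with bounds of -3.09, beside -0.11. Of the 39, 5 passed the filter only through control TDP2. Of the 138 members tested, 112 had no read in prg-1 TDP2. Since 41 of the 138 reached 10 reads in control TDP2 alone, the medians of both strains are a description. So is the unadjusted count in pics-1 worms. Without the it20 library 18 were lower in prg-1, with DESeq2 10, with RLE size factors 1, and with no TMM scaling or with microRNA reads as library size 0.

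The strongest prg-1 calls were members with many reads in control TDP2. piR-cel-4817 had 0 reads in prg-1 TDP2 and 499 in control TDP2, at least 155-fold lower in RPM (edgeR adjusted p = 0.000165). piR-cel-3975 had 0 against 445 reads, at least 138-fold lower (edgeR adjusted p = 0.000165), and piR-cel-2290 had 1 against 374 reads (edgeR adjusted p = 0.000622). piR-cel-2686 and piR-cel-7301, at 0 reads against 164 and 126, were the next. Of piR-cel-3975, pics-1 TDP2 kept 20 reads, erh-2 TDP2 27, and the tofu-6 alleles it20, ust94, ust95 and yt2 110, 6, 62 and 206.

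Precursor features were listed for 266 of the 515 member loci (51.7%), against 36.1% of the 7126 other mature piRNA features. Reads of a gene that overlaps a precursor feature may be counted in it, and this was not tested. Whether 1 read can count for both the mature and the precursor feature of a locus is not given in the sources used here, which limits each ratio of precursor to mature reads. Per mature read, precursor reads at the member loci were more numerous in every mutant than in the control after TDP2. There were 2.55 precursor reads per mature read in tofu-6(it20), 0.543 in ust94, 0.250 in ust95 and 0.616 in yt2, 4.65 in pics-1 worms, 4.12 in erh-2 worms and 11.3 in prg-1, against 0.152 in the control. All 4 alleles lay above the control, with a tofu-6 mean of 0.990 ± 1.05 (SD, n = 4), or 0.470 without it20.

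The higher ratio came with lower mature reads in all mutants, and with more precursor reads in only some. Precursor RPM at the member loci was 393 in tofu-6(it20), 71.3 in ust94, 104 in ust95 and 127 in yt2, 242 in pics-1 worms, 225 in erh-2 worms and 177 in prg-1, against 131 in the control. So 3 of the 4 tofu-6 alleles were below the control in precursor RPM, with yt2 close to it. Of the 116 precursors tested, edgeR and DESeq2 called 0 in either direction in each of the 4 mutants, with, in edgeR, 3 at an unadjusted p under 0.05 in tofu-6, 4 in pics-1 worms, 11 in erh-2 worms and 3 in prg-1. Of all features 5.64%, 5.23%, 10.8% and 12.2% had such a p, and edgeR called 0.173%, 0.0355%, 0.111% and 5.54% lower and 0.0887%, 0.0177%, 0.0577% and 0.0887% higher. Of the 116, 79 passed the filter only through mutant libraries. The median log2 differences of the 116 with bounds were 0.77, 0.58, 1.30 and 0.67, beside 0.14, -0.03, -0.10 and -0.11 for all features. Since the 116 include those 79, these medians are a description.

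Single precursors varied between the libraries. The precursor of piR-cel-1496 had 92, 14, 44 and 54 reads in the it20, ust94, ust95 and yt2 libraries, 84 in pics-1 worms, 93 in erh-2 worms and 47 in prg-1, against 62 in control TDP2. The precursor of piR-cel-5303 had 130, 13, 22 and 28 reads in the alleles, 56 in pics-1 worms, 84 in erh-2 worms and 21 in prg-1, against 19 in control TDP2. Both were named after their values were seen, for their many reads over the TDP2 libraries, and it20, erh-2 and pics-1 had the most reads of both. In RPM the precursor of piR-cel-1496 was below the control in ust94, ust95, yt2 and prg-1, while that of piR-cel-5303 was below it in ust94 alone.

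In the untreated mutants 1 locus held most of the precursor reads. Precursor reads per mature read were 0.0281 in tofu-6(ust94), 0.0629 in pics-1 worms, 0.0262 in erh-2 worms, 2.48 in prg-1 and 0.00674 in tost-1, against 0.00704 in the control. The precursor of piR-cel-19604 alone held 543, 465, 279, 123 and 93 of these reads, against 57 in the control. Without it, an alternative chosen after the data were seen, the ratio was 0.00189 in tofu-6(ust94), 0.00223 in pics-1 worms, 0.00263 in erh-2 worms, 0.879 in prg-1 and 0.00303 in tost-1, against 0.00385 in the control. The PICS mutants were then below the control, as tost-1 was with and without the locus, whereas prg-1 stayed above it. These ratios rest on 39, 17, 31, 58 and 76 precursor reads in the mutants, in the same order, against 69 in the control. They have no interval, and the control's mature reads chose the members, so the order is a description. After TDP2 the same step changed no direction.

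**Figure D5:**
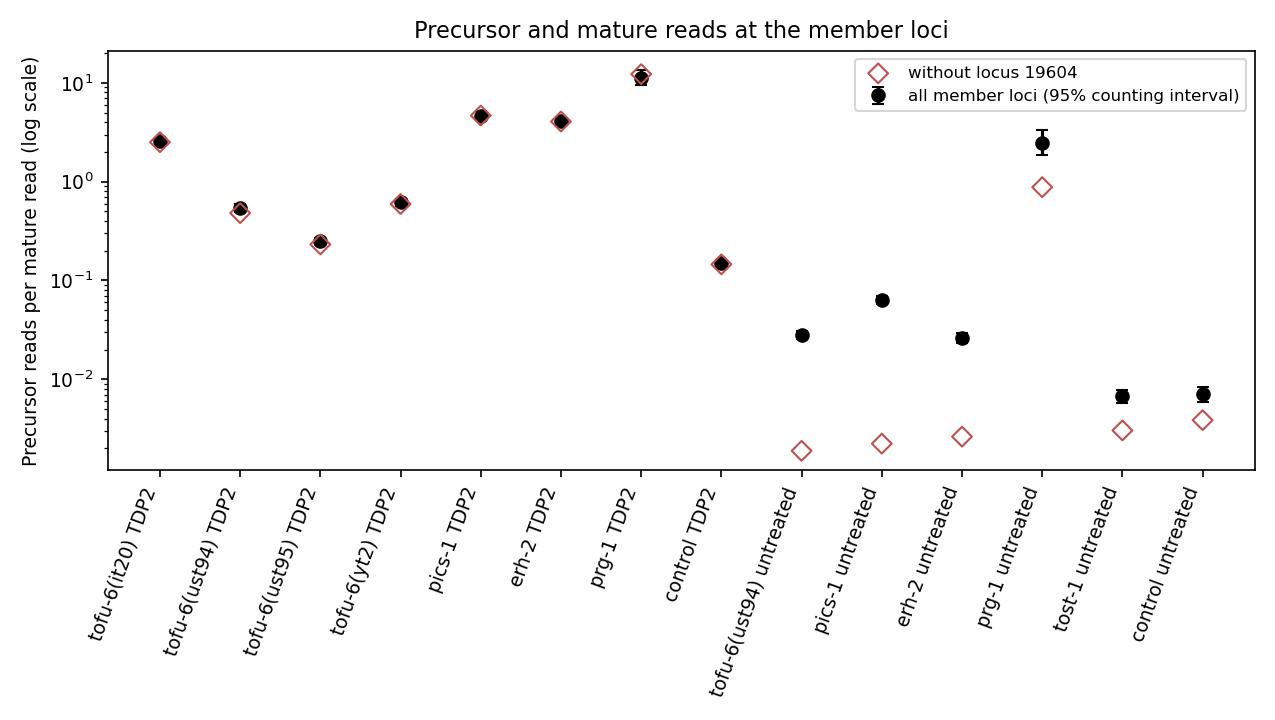
Precursor reads per mature read at the member loci in each library (log axis), with exact 95% counting intervals; open diamonds leave out the locus piR-cel-19604. After TDP2 every mutant lies above the control at 0.152. In the untreated libraries leaving out this locus moves the 3 PICS mutants below the control, where tost-1 also lies. The diamonds have no interval.

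In the strain-paired edgeR fit, 74 of 76 precursors tested were higher with TDP2, against 40.0% of all features. Of the 76, 75 reached 10 reads in none of the 4 untreated libraries fitted, where they had at most 7, and passed the filter only through their TDP2 reads, so this count is a description and not set against that of the mature members. The 1 that was lower, against 9.28%, named after its values were seen, was that of piR-cel-19604 (log2 change -2.10 ± 0.42, edgeR adjusted p = 0.00178). The precursors had a median log2 change of 4.12 with precursors at 0 untreated set to their bound, which is a description for the same reason as the count. Precursor ranks over the 266 loci were more alike between TDP2 libraries (rho 0.57 to 0.88) than those of the mature members. Mature and precursor reads of the same locus were weakly related within a library, with rho of 0.20 in control TDP2, 0.17 in tofu-6(it20) TDP2, 0.13 in pics-1 TDP2 and 0.14 in erh-2 TDP2. These loci share their library and its depth, and in counts this sparse such values are no more than a description.

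Genes of the pathway itself were looked at in the same fits. The list held factors for the transcription of piRNA loci (prde-1, snpc-4, unc-130, tofu-4, tofu-5), PICS subunits, processing enzymes (parn-1, henn-1, slfl-3, slfl-4), prg-1 and downstream silencing factors such as hrde-1 and znfx-1. Of its 24 genes 23 were found, and of 22 tested in each TDP2 genotype comparison edgeR called 0 lower and 0 higher in sense or antisense reads, where the shares of all features given above leave few calls to be seen among 22 genes. At an unadjusted p under 0.05 there were 0 to 1 in sense and 0 to 2 in antisense reads, and DESeq2 called 1, in antisense reads in prg-1. With TDP2 against untreated, 4 of 22 were lower in sense reads (prg-1, deps-1, snpc-4 and znfx-1) and 1, pid-1, was higher, against 9.28% and 40.0% of all features. For prg-1 the log2 change was -1.31 ± 0.31 (edgeR adjusted p = 0.00452) and for pid-1, the PICS subunit that acts on piRNAs, 3.71 ± 0.43 (edgeR adjusted p = 0.000219). In antisense reads 21 of 22 were higher and 0 lower, against the same shares of all features, which hold both strands. The oocyte and germline marker genes had 11 of 11 higher in antisense reads, with a median log2 change of 3.80, as in the pathway list (3.80). Of the soma and sperm markers tested, 2 of 4 and 0 of 7 were higher.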

How the data were processed

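Small RNAs of 14 libraries were analysed from the read counts that the authors deposited for each library, whole numbers per transcript or piRNA on both strands. Per the submitters' processing notes reads were aligned with Bowtie2; its version, the genome build, the counter and the treatment of reads with several matches were not given in the sources used here. Class totals were not used. Libraries were grouped by strain and treatment from the labels, and TDP2 and untreated libraries were paired by strain name. The members, lists and alternatives were chosen with earlier results of these data known. Sequences and positions of the piR-cel numbers were not used here.

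Counts were summed per gene, class and strand. Entries with no class (3 to 27 reads per library) were left out. RPM is reads scaled to 1000000 assigned reads. Fits used edgeR 4.0.16 (glmQLFit, glmQLFTest, TMM; limma 3.58.1; R 4.3.3) on features with at least 10 reads in 1 library and 30 in all libraries fitted, with two-sided p-values, Benjamini-Hochberg adjustment over all features and a threshold of 0.05. CPM is scaled to TMM library sizes. Each fit had 3 residual degrees of freedom. The biological coefficient of variation was 0.561 for the genotypes, where prior degrees of freedom were infinite and each test used a pooled spread, and 0.478 for the treatment. On simulated data only the tofu-6 and the treatment contrasts were tried, and those of pics-1, erh-2 and prg-1 were not. Intervals are 95% and exact (Clopper-Pearson or conditional binomial, scipy 1.17.1), and floors are 3 counts; both cover counting error only. Comparisons of 1 untreated library with 1 other used a 2-fold rule and no test. Alternatives were DESeq2 1.42.0, other scalings and denominators, no filter on low counts, other thresholds, no block, and leaving out each replicate.

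Members named were the 10 with most reads in untreated control, up to 5 per direction and contrast with the smallest adjusted p, the 5 highest and 5 lowest in ratio to tost-1 and the 3 most read in untreated prg-1, and at most 2 on either side of the 10-read threshold; exceptions are stated.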

Additional observations from a re-analysis of the deposited data

Results flagged for a closer look

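Of 31 values compared over the 4 tofu-6 TDP2 alleles, 4 had 1 allele far from the others, and chance alone does this for about 1 in 20 groups. Precursor reads per mature read at the member loci were 2.55 in tofu-6(it20), with the other alleles at 0.250 to 0.616. Of single members, piR-cel-2290 had 27.1 CPM in ust95, with the others at 5.21 to 6.14. piR-cel-5622 had 3.37 CPM in ust95, with the others at 0.463 to 0.578, and piR-cel-5105 had 0.750 CPM there, with the others at 0.231 to 0.289. The summed member share with TDP2 was 2.18 of the untreated share in prg-1, on 136 and 73 reads, whereas it was 0.0386 to 0.340 in the other 4 strains; this difference between strains was not tested.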

How the results depend on the processing

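The counts of members lower in the TDP2 genotype comparisons depended on the scaling. With RLE size factors they were 0 in tofu-6, 0 in erh-2 worms and 1 in prg-1; with no TMM scaling and with microRNA reads as library size 0 in all of these; with DESeq2 0, 1 and 10; and with no filter on low counts 4, 0 and 23. Leaving out 1 tofu-6 allele gave 0 to 14 in tofu-6, 0 to 4 in pics-1 worms, 0 to 6 in erh-2 worms and 18 to 39 in the prg-1 comparison; the lowest for tofu-6 and prg-1 came without it20, and the highest for all but prg-1 without yt2. The microRNA scaling moved the median log2 difference of all features to 1.89 in tofu-6, 1.48 in pics-1 worms, 2.79 in erh-2 worms and 1.89 in prg-1, and the members' median relative to it was -2.24, -4.56, -4.74 and -7.97 (-2.14, -4.56, -4.60 and -7.39 with TMM). The cause of the lost calls was not tested. Depth limits these counts, since 377 of the 515 members had too few reads to be tested.

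With TDP2 against untreated, the fit without the replicate block, that is without the pairing by strain, gave 284 members lower. With microRNA reads as library size 110 were lower and 3 higher, piR-cel-3975 turned to a log2 change of 0.84 and piR-cel-19604 to 2.11; leaving out 1 pair gave 174 to 325 lower, the lowest without tofu-6(ust94), and only members with 10 reads in a TDP2 library gave 24. Of single named members, 128 values under an alternative lost the threshold and 13 gained it, with the same direction.

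The members' share relative to the control moved with the denominator. Per microRNA read it was 0.206 in untreated tofu-6(ust94), 0.111 in pics-1 worms, 0.246 in erh-2 worms, 0.00188 in prg-1 and 1.46 in tost-1, and after TDP2 0.794 in tofu-6, 0.135 in pics-1 worms, 0.654 in erh-2 worms and 0.100 in prg-1. Per read outside structural RNA it was 0.327 in untreated tofu-6(ust94), 0.155 in pics-1 worms, 0.323 in erh-2 worms and 1.24 in tost-1, and after TDP2 0.0469 in pics-1 worms, 0.0917 in erh-2 worms and 0.0395 in prg-1. With members of 20 reads it was 0.713 in untreated tofu-6(ust94), 0.0690 in erh-2 TDP2 and 0.0124 in prg-1 TDP2, and with the left-out loci put back 0.587 in untreated erh-2. No direction changed.

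The percent of members 2-fold lower than untreated control was 97.1 in tofu-6(ust94) per microRNA read and 93.2 in erh-2 worms, and 84.3 in tofu-6(ust94) per read outside structural RNA; at 3-fold it was 26.4 and 32.8. The percent higher in tost-1 was 8.16 per read outside structural RNA, 9.43 with members of 20 reads and 1.75 at 3-fold. Against tost-1, 98.1% were lower in tofu-6(ust94) per microRNA read.

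Precursor reads per mature read over all piRNA loci were 0.108 in untreated tofu-6(ust94), 0.201 in pics-1 worms, 0.0917 in erh-2 worms, 5.25 in prg-1, 0.0207 in tost-1 and 0.0287 in control, and after TDP2 4.02 in tofu-6, 10.9 in pics-1 worms, 5.72 in erh-2 worms, 6.99 in prg-1 and 1.03 in control. With members of 20 reads they were 0.00162, 0.00175, 0.00224, 0.755, 0.00269 and 0.00343 in the same untreated order, and after TDP2 3.24 in erh-2 worms, 13.7 in prg-1 and 0.127 in control. With the left-out loci put back they were 0.0239 in untreated tofu-6(ust94), 0.0513 in pics-1 worms, 0.0210 in erh-2 worms and 0.00559 in tost-1. Without piR-cel-19604 they were 0.00189, 0.00223, 0.00263, 0.879, 0.00303 and 0.00385 in that order.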
